A study of Mus musculus with 8 samples.

Results

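Gene expression was compared between A-type and B-type fibroblasts sorted from the mouse lung, 2 samples of each, which are 4 of the 8 arrays of the study. The 4 arrays were chosen by their titles alone, and all of them lie on 1 slide and share 1 scan. Across them 15615 genes could be tested. The other 4 arrays hold C-type fibroblasts and pulmonary single cells, the lung suspension from which the fibroblasts were sorted, 2 samples each.

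Both fibroblast types came from freshly dissociated lungs of adult female C57BL/6 mice aged 12 to 16 weeks, with no genetic change or treatment named in the labels. Each sample was prepared independently and held 50000 cells, and 10 ng of its RNA was amplified before Cy3 labelling and hybridisation to a one-colour Agilent array. The sort used antibodies against the lineage markers E-cadherin (epithelium), CD45 and TER119 (blood cells) and CD31, LYVE-1 and CD146 (vessels). THY-1, SCA-1 and PDGFRA were stained as well. The sources used here do not give the combination of these stains that separates A-type from B-type cells, or how many mice a sample holds. The p-values therefore measure the spread between these samples only.

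Fibroblasts build and repair the connective tissue of the lung. Those in the thin walls between air spaces (alveolar fibroblasts) lie against epithelium and capillaries, anchor to the basement membrane through integrin alpha 8 and its ligand nephronectin, and support alveolar epithelial cells. Those in the cuffs around large vessels and airways (adventitial fibroblasts) carry CD34, SCA-1 and often DPP4, and secrete fibrous matrix and chemokines.

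Of the 15615 genes, 126 were higher in A-type cells (0.807%) and 84 were higher in B-type cells (0.538%), together 1.34%, at a Benjamini-Hochberg adjusted p under 0.05 in limma. Here and below, "called" means past that threshold, a level is a scaled log2 signal (0 is the array's own 75th percentile, and each unit is a doubling), and a difference is the mean level in A minus that in B, with its standard error (SE). The smallest called differences were 1.09 and 1.13 in size, so each of the 210 called genes differed by at least 2-fold. An unadjusted p under 0.05 was reached by 2089 genes, 13.4% of those tested, which is the share to set beside such counts in the lists below. The median difference over all genes was -0.01. The median size of the difference was 0.2 between the group means and, for single arrays, 0.22 between A1 and A2 and 0.2 between B1 and B2. Differences of at least 2-fold were present for 4% of genes between the group means, which average 2 arrays each, and for 2.65% between the single A arrays and 2.86% between the single B arrays. Both A arrays lay above both B arrays for 22% of all genes, and both B arrays above both A arrays for 23.6%. Among the called genes, 52 stayed called whichever array was left out, 29 of them higher in A and 23 higher in B. The lower group was not well above background on either array for 39 of the genes higher in A and for 26 of those higher in B, and a fold is then written as a bound.

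**Figure D1:**
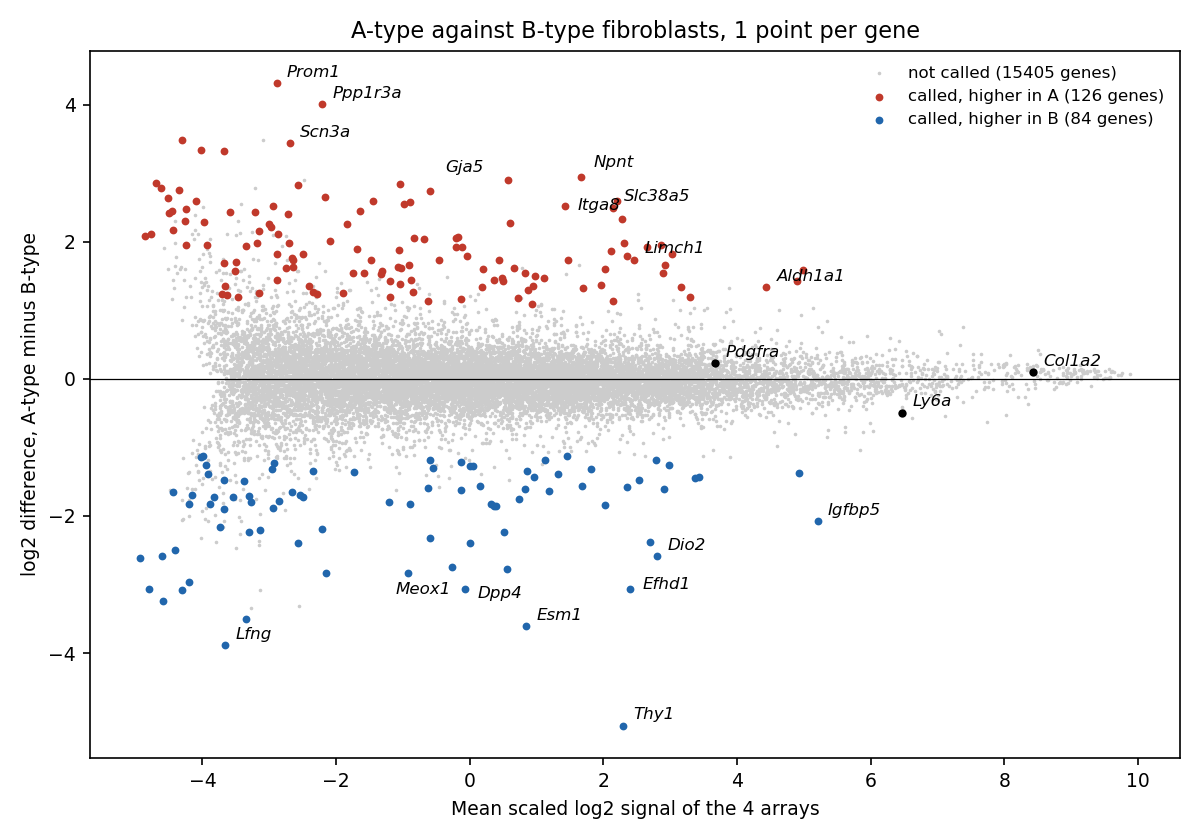
The difference in scaled log2 signal (A-type minus B-type, vertical axis) is plotted against the mean scaled log2 signal of the 4 arrays (horizontal axis), 1 point per gene. Red and blue points are the 126 and 84 called genes and grey points the others. Thy1 lies farthest from 0 at -5.06, while Pdgfra, Ly6a and Col1a2, drawn in black, were not called.

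Across the 4 arrays, the 75th percentile of the signal lay between 163.4 and 182.0 units, 60.2% to 66.1% of probes were well above background and 0 were saturated. The correlation over genes was 0.988 between the replicates of either type and 0.976 to 0.98 between arrays of different types. All 14 general fibroblast markers were above background on all 4 arrays. In limma 0 of them were called and 3 had an unadjusted p under 0.05. The collagen I chain gene Col1a2 had levels of 8.42 and 8.55 in A and 8.56 and 8.20 in B (difference 0.10, SE 0.20, adjusted p = 0.869).

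Thy1, which encodes the surface protein THY-1 used in the sort, was the gene with the largest difference. Its levels were -0.46 and -0.03 in A against 4.96 and 4.67 in B, a 33.4-fold difference (-5.06, SE 0.22, adjusted p = 0.0081). Since the antibody panel included THY-1, this difference is not independent of the sort. The genes of the other sorted antigens had overlapping or close levels. Pdgfra, the receptor for platelet-derived growth factor, had levels of 3.73 and 3.86 in A and 3.53 and 3.60 in B (0.23, adjusted p = 0.621). Ly6a, which encodes SCA-1, had levels of 6.04 and 6.4 in A and 6.79 and 6.63 in B (-0.49, adjusted p = 0.374). Of the lineage genes, Pecam1 (difference 0.06), Ptprc (0.17) and Mcam (0.07) were not called, and the probes of Lyve1 and Cdh1 were not well above background on both arrays of either type. Of the 6 panel genes tested, 0 were called higher in A and 1, Thy1, higher in B.

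The alveolar fibroblast markers leaned to the A-type cells. This list and the adventitial list below were chosen with earlier results of these data known, so their counts are a description only. Of 18 markers, 17 were tested, 5 were called higher in A and 0 higher in B, and the median difference was 0.65. Both A arrays lay above both B arrays for 11 of the 17, and the reverse order occurred for 0. Over all genes tested, 0.807% were called higher in A, and both A arrays lay above both B arrays for 22%. Npnt, which encodes nephronectin, had levels of 3.05 and 3.22 in A and -0.04 and 0.42 in B. This is a 7.68-fold difference (2.94, SE 0.22, adjusted p = 0.0086). Itga8, its integrin receptor chain, had levels of 2.74 and 2.64 in A and -0.04 and 0.37 in B, a 5.74-fold difference (2.52, SE 0.21, adjusted p = 0.0107). Ligand and receptor gene were therefore both high on both A arrays.

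The other called alveolar markers were Nebl, Limch1 and Cxcl14. Limch1, an actin-binding protein gene, had levels of 3.32 and 3.34 in A and 1.60 and 1.59 in B (1.74, SE 0.16, adjusted p = 0.0147). Cxcl14, a chemokine gene, had levels of 3.64 and 3.87 against 2.02 and 2.18 (1.66, SE 0.18, adjusted p = 0.0213). Nebl, which encodes nebulette, was at least 3.8-fold higher in A (-1.64 and -1.99 against -4.24 and -3.63, adjusted p = 0.0262), since it was not above background in B. Without A2, these 3 genes missed the threshold, with adjusted p up to 0.0632 for Limch1, 0.0776 for Cxcl14 and 0.0891 for Nebl, which also missed it without A1. Markers with intermediate values that were not called were Macf1 (1.24, adjusted p = 0.0509) and Spon1 (1.01, adjusted p = 0.0751). Tcf21, a transcription factor of lung mesenchyme, had levels of 3.03 and 3.33 in A and 3.16 and 2.69 in B (0.25, adjusted p = 0.701), and the lowest difference in the list was that of Scn7a (-0.21).

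The adventitial markers leaned the other way. All 28 were tested, 0 were called higher in A and 4 higher in B, and the median difference was -0.44. Both B arrays lay above both A arrays for 20 of the 28, and the reverse held for 1. Over all genes tested, 0.538% were called higher in B, and both B arrays lay above both A arrays for 23.6%. Dpp4, a surface protease gene, had levels of -1.56 and -1.65 in A and 1.43 and 1.49 in B, an 8.4-fold difference (-3.07, SE 0.17, adjusted p = 0.0086) in which the replicates of each type lay close together. Anxa3, an annexin gene, had levels of -0.59 and -0.52 against 1.22 and 1.38 (-1.85, adjusted p = 0.0142). The secreted guidance cue gene Sema3c (1.56 and 2.03 against 3.18 and 3.36, adjusted p = 0.0446) and the scavenging chemokine receptor gene Ackr3 (0.21 and 0.27 against 1.86 and 1.47, adjusted p = 0.0377) completed the 4. Dpp4 stayed called without any one array. Anxa3 missed the threshold without A2 (adjusted p = 0.0543), Sema3c without A1, A2 or B2 (up to 0.117) and Ackr3 without A1, A2 or B1 (up to 0.122).

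The adventitial markers were above background on all 4 arrays, and most of them differed by less than 2-fold. Cd248 had levels of 5.42 and 5.48 in A and 6.02 and 5.77 in B (-0.45, adjusted p = 0.365). Cd34 had levels of 5.28 and 5.25 against 6.07 and 5.85 (-0.70, adjusted p = 0.173), and Pi16 of 3.57 and 3.52 against 3.84 and 3.72 (-0.24, adjusted p = 0.61). Il33, the gene of an alarmin cytokine, had levels of 3.02 and 3.20 against 4.15 and 4.16 without passing the test (-1.04, adjusted p = 0.0605). Markers of the myofibroblast and peribronchial list showed no common direction, with 0 called higher in A and 1 higher in B of 17 tested and a median of -0.09. An unadjusted p under 0.05 in limma was reached by 10 of the 17, against 13.4% of all genes. Both A arrays lay above both B arrays for 6 of them and below for 8, against 22% and 23.6% of all genes. The called gene was Aspn, described below with the proteoglycans, and Acta2, smooth muscle actin, had levels of 1.70 and 2.07 in A and 0.89 and 0.90 in B (0.99, adjusted p = 0.098). Postn and Cthrc1 were not above background on either A array and were above it on both B arrays, with adjusted p of 0.0637 and 0.0604.

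**Figure D2:**
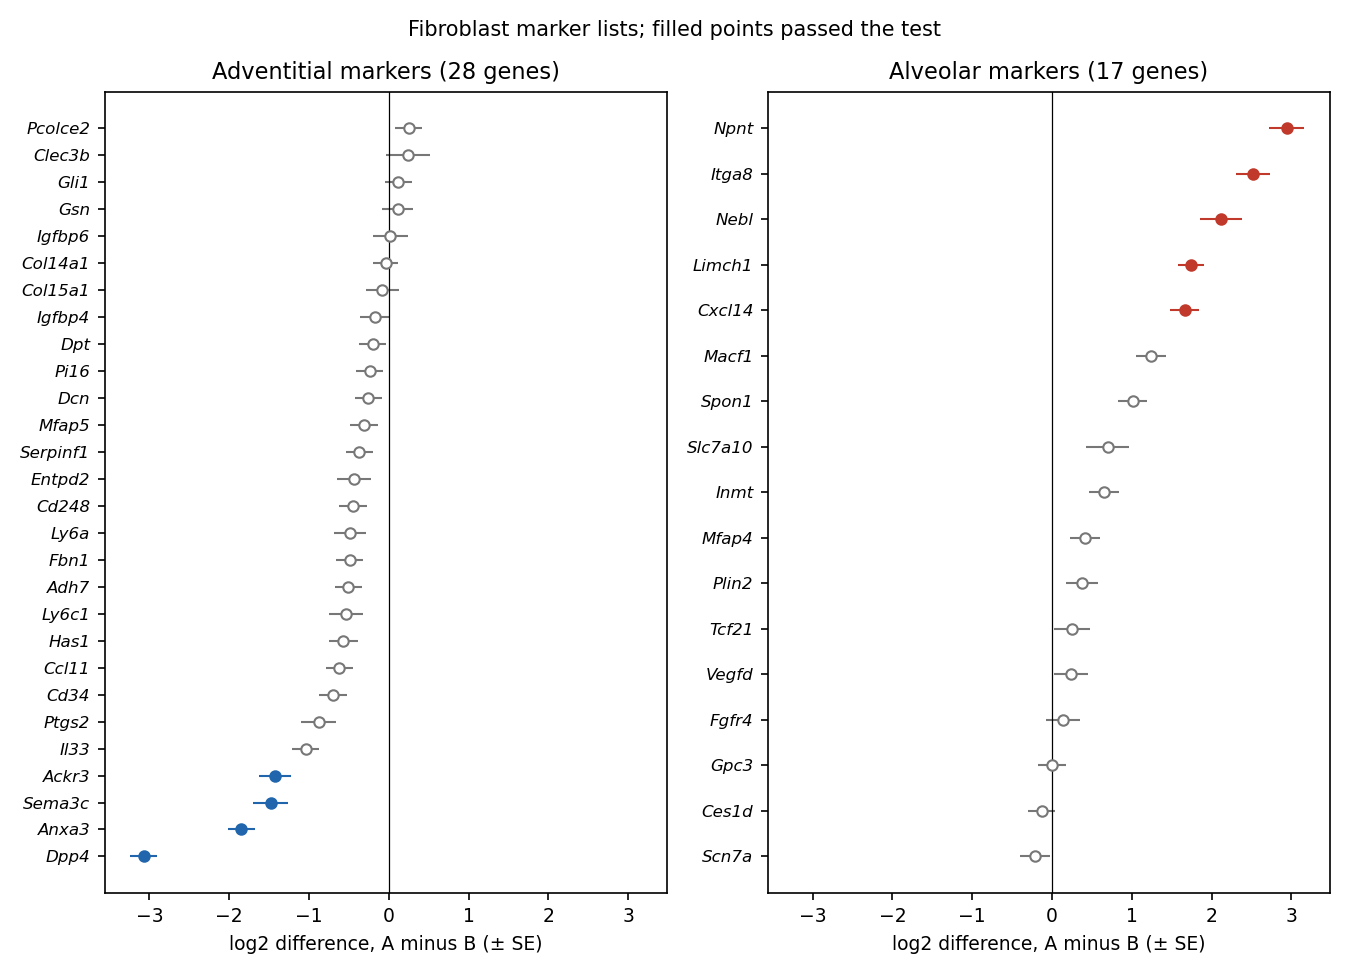
Differences in scaled log2 signal (A minus B, horizontal axis, bars show the SE of the fit) are plotted for the 28 adventitial and 17 alveolar markers tested, 1 row per gene. Filled points were called. The 4 filled adventitial points lie between -3.07 and -1.43, and the 5 filled alveolar points lie between 1.66 and 2.94.

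The stretches before the start sites of 4 of these genes are shown so that the nephronectin and integrin alpha 8 pair, higher in A, can be set beside Dpp4 and Esm1, higher in B. They are the 250 bases upstream of the RefSeq start (build GRCm38.p6), read 5′ to 3′ on the gene's strand, from chr2:12301945-12302194 (minus strand), chr3:132950292-132950541 (minus strand, the first of its starts in the table), chr2:62412232-62412481 (minus strand) and chr13:113209409-113209658 (plus strand). Capitals mark the letters TATAAA of the TATA box, the letters CCAAT of the CCAAT box or the letters GGGCGG of the GC box on either strand.
Itga8: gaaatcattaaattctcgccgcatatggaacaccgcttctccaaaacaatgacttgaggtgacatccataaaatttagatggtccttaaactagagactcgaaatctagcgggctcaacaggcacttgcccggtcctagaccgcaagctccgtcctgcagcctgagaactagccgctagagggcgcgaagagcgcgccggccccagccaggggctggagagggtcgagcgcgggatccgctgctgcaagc
Npnt: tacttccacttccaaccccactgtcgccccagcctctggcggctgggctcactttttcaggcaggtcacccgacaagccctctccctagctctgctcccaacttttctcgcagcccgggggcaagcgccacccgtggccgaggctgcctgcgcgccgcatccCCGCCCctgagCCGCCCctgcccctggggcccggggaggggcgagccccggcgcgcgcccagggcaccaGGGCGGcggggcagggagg
Dpp4: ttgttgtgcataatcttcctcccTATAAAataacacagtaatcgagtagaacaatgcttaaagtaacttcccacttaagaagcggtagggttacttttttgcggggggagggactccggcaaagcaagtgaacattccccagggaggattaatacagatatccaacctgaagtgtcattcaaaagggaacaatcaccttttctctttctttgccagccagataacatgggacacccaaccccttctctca
Esm1: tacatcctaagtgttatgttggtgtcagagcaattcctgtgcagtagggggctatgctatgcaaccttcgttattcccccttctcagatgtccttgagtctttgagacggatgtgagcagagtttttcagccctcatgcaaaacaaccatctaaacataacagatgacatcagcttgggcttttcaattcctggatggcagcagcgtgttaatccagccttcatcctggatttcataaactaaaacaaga
The Npnt stretch holds 3 copies of GGGCGG or its reverse complement, starting 88, 77 and 19 bases before the start, and its GC content is 74.0%. Itga8 has 56.4% GC and 18 CpG dinucleotides, with none of these letters. Dpp4 (43.6% GC, 4 CpG) holds TATAAA only at 227 bases before the start, and Esm1 (44% GC, 3 CpG) holds none of the motifs. Over the 27025 genes with a promoter entry, 32.9% hold GGGCGG, 34.5% CCAAT and 13% TATAAA within the same window, and over the 11935 of them that were tested here 53.9%, 35.8% and 8.1%. Among called genes with an entry, GGGCGG is present in 50.6% of 87 genes higher in A and 42.9% of 63 higher in B, CCAAT in 29.9% and 30.2%, and TATAAA in 10.3% and 15.9%. The median GC content is 59.2% in both called sets and 58.8% over the tested genes. These are descriptions of letters, not of sites in use.

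The other genes with the largest differences toward A had varied roles. Gja5, the gap junction protein connexin 40, had levels of 1.90 and 2.13 in A and -1.06 and -0.70 in B, a 7.46-fold difference (2.90, SE 0.20, adjusted p = 0.0086), with 0.85 at its other probe. Plekha7, a protein of adherens junctions, had levels of 0.03 and 0.72 against -2.30 and -2.64 (7.2-fold, adjusted p = 0.016). Both genes were above background on all 4 arrays. A lack of overlap between the types was part of the rule that chose this group. Prom1, the gene of the membrane glycoprotein prominin 1, had levels of -0.95 and -0.51 in A but was not above background in B, so that it was at least 9.33-fold higher (4.32, SE 0.62, adjusted p = 0.0403). Ppp1r3a, which targets a phosphatase to glycogen, was at least 15.8-fold higher (-0.30 and -0.10 against -3.79 and -4.64, adjusted p = 0.0086). In the same way the sodium channel gene Scn3a was at least 8.12-fold higher, the fatty acid transporter gene Slc27a6 at least 6.81-fold and Shisal1 at least 4.63-fold. The potassium channel gene Kcnj5 (-0.73 and -0.94 against -3.32 and -3.66, 6.29-fold) was above background on 1 of the 2 B arrays.

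Ntsr2, Bex2, Myh1, Ptprv and Hrnr also entered this group by size, yet all were dim in A and not above background in B, with bounds of 3.16, 3.66, 1.95, 2.01 and 2.36-fold. Prom1 and Shisal1 missed the threshold without A1 or A2, with adjusted p up to 0.123 and 0.0733. With normexp background correction, which adds an offset of 50 units, Prom1 differed by 1.38, Ppp1r3a by 1.49 and Scn3a by 0.97, all still called. Bex2, Myh1, Ptprv and Hrnr were not called there, at adjusted p from 0.0677 to 0.281.

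Toward B, the genes with the largest differences after Thy1 also had varied roles. Esm1, the gene of the secreted proteoglycan endocan, had levels of -0.61 and -1.31 in A and 2.47 and 2.82 in B, a 12.2-fold difference (-3.61, SE 0.28, adjusted p = 0.00937). Efhd1, a calcium-binding mitochondrial protein gene, had levels of 1.00 and 0.73 against 3.88 and 4.01 (8.42-fold, adjusted p = 0.0086). Dio2, the deiodinase that activates thyroid hormone, had levels of 1.60 and 1.41 against 3.93 and 4.26 (6.01-fold, adjusted p = 0.0086). In all 3 genes the types were far apart compared with the replicates, which the test that called them favours. Ackr2, a receptor that takes up inflammatory chemokines, had levels of -0.65 and -1.0 against 1.92 and 1.98 (6.84-fold), and Aif1l, an actin-binding protein gene, of -1.79 and -1.48 against 1.08 and 1.15 (6.74-fold), both with adjusted p = 0.0086. Pla1a, a secreted phospholipase gene, differed by 5.21-fold and Pianp by 7.12-fold.

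Lfng, which encodes a sugar transferase that modifies Notch receptors, was at least 4.96-fold higher in B, with -5.12 and -6.07 in A, not above background, and -1.62 and -1.81 in B (adjusted p = 0.0115). Tnfrsf11b, the decoy receptor osteoprotegerin, was at least 2.4-fold higher and Trim30e-ps1, a pseudogene, at least 5.38-fold. Car8, Gpr173, Akr1c18 and Mpo were at least 1.68, 2.08, 2.49 and 1.32-fold higher in B, all dim there. Gpr173 and Akr1c18 missed the threshold without A1 or A2 (adjusted p up to 0.0838 and 0.0928). With normexp correction Lfng differed by -0.92 and stayed called, whereas Tnfrsf11b (adjusted p = 0.0554), Car8 (0.117) and Mpo (0.134) were not called.

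**Figure D3:**
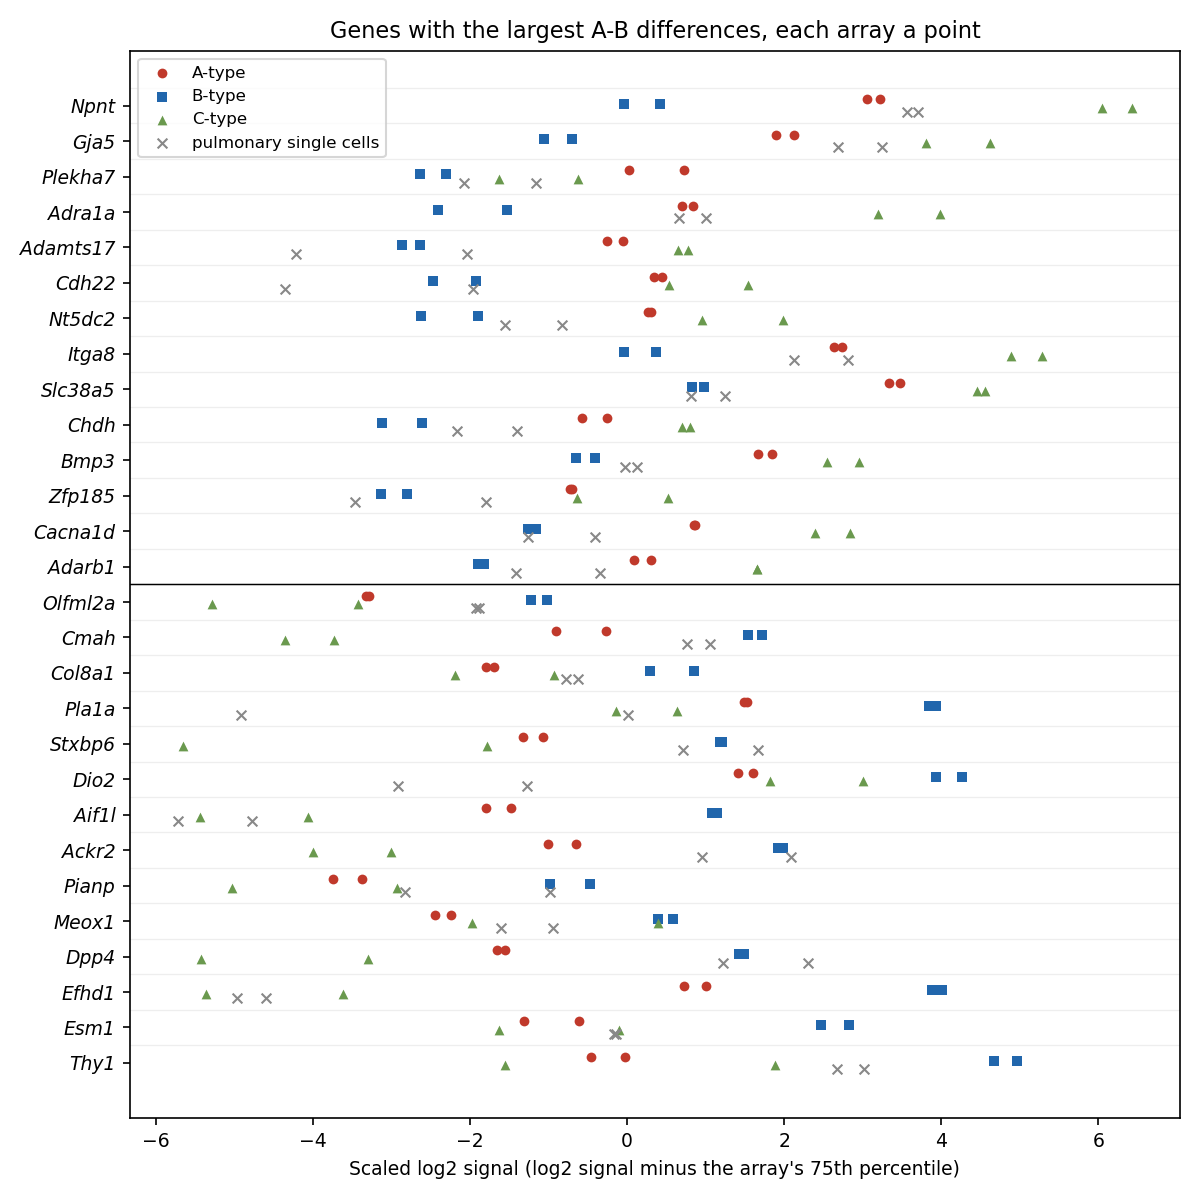
Scaled log2 signal (horizontal axis) is drawn for the 14 genes with the largest called difference in each direction among those above background on all 4 arrays and carrying a plain symbol. Each point is 1 array: A-type (circles), B-type (squares), C-type (triangles) and pulmonary single cells (crosses). A and B points do not overlap in any row, and the C-type points of Npnt (6.05 and 6.43) lie above both.

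Within the matrix, none of the fibrillar collagen genes was called, and a few others were. Of 8 fibrillar collagen genes tested, 0 were called in limma, 1 had an unadjusted p under 0.05 and the median difference was 0.08. Of 23 other collagen genes, 1 was called higher in A and 2 higher in B, with a median of 0.16. Col13a1, a membrane collagen gene, was at least 3.89-fold higher in A (-2.11 and -1.64 against -4.45 and -3.81, adjusted p = 0.0262). Col8a1, a short-chain network collagen gene, had levels of -1.70 and -1.79 in A and 0.29 and 0.85 in B (-2.32, SE 0.23, adjusted p = 0.0169). Col12a1, a collagen associated with fibrils, differed by -1.36 (adjusted p = 0.0364), but its other probe gave 0.31, so its probes disagree in sign.

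Basement membrane genes gave 2 called higher in A and 0 higher in B of 19, with a median of -0.02. Besides Npnt, the called gene was Frem1 (0.60 and 0.90 against -1.03 and -1.31, 1.92, adjusted p = 0.0207), an adhesion protein of epithelial basement membranes. In the elastic fibre list, 1 of 23 was called, Ltbp2 (1.43 and 1.80 against 0.36 and 0.17, 1.36, adjusted p = 0.0458), a microfibril-associated protein gene higher in A. Of 12 small leucine-rich proteoglycans, 1 was called, Aspn (asporin), with levels of 1.11 and 1.12 in A and 2.91 and 3.0 in B (-1.84, SE 0.17, adjusted p = 0.0135). Thbs2, a thrombospondin gene, was the 1 of 20 matricellular genes called, higher in B (-0.44 and -0.74 against 0.77 and 0.60, -1.27, adjusted p = 0.0461). Itih5, whose protein binds hyaluronan, was the 1 of 11 hyaluronan genes called, higher in B (-0.49 and -0.58 against 1.08 and 1.54, -1.85, adjusted p = 0.0216). The synthase gene Has2 differed by -1.58 without passing the test (adjusted p = 0.055).

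Among 35 matrix proteases and inhibitors, 3 were called higher in A and 1 higher in B, with a median of 0.11. Adamts17, a secreted metalloprotease gene, had levels of -0.25 and -0.05 in A and -2.63 and -2.87 in B, a 6.06-fold difference (2.60, SE 0.19, adjusted p = 0.0086), with 1.08 at its other probe. The protease inhibitor gene Serpine2 (1.34), the protease gene Adamts9 (1.17) and, toward B, Adamtsl3 (-1.13) had smaller differences. Of 15 integrin genes, 1 was called higher in A (Itga8) and 2 higher in B. Itgb3 had levels of 2.13 and 2.26 in A and 3.41 and 3.36 in B (-1.18, adjusted p = 0.0393), with -0.17 at its other probe, and Itga3 was at least 1.48-fold higher in B.

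Of the called matrix genes, Adamts17, Npnt and Itga8 stayed called without any one array. Without A2, the adjusted p reached 0.0541 for Aspn, 0.0677 for Col8a1, 0.0701 for Frem1 and 0.0878 for Col13a1. Itih5 missed the threshold without A1 or A2 (up to 0.0812), Col12a1 without A1, A2 or B1 (up to 0.119) and Ltbp2 without A1, A2 or B2 (up to 0.135). Thbs2, Serpine2, Adamts9, Adamtsl3, Itga3 and Itgb3 missed it without any of A1, A2, B1 or B2, at adjusted p between 0.0607 and 0.151. Itga3 was also not called with normexp correction (adjusted p = 0.417).

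Secreted ligands and their receptors differed gene by gene. Of 40 BMP and TGF-beta genes, 1 was called, Bmp3, a divergent BMP ligand gene, with levels of 1.67 and 1.84 in A and -0.65 and -0.41 in B (2.28, SE 0.18, adjusted p = 0.0101), and the list's median was -0.04. Of 42 Wnt pathway genes, 0 were called higher in A and 2 higher in B, with a median of 0.02. The ligand gene Wnt10b had levels of -0.53 and -0.65 in A and 1.34 and 1.13 in B (-1.83, SE 0.18, adjusted p = 0.016). The secreted Wnt inhibitor gene Sfrp4 had levels of 2.40 and 2.31 against 3.54 and 3.67 (-1.25, adjusted p = 0.0352). Igfbp5, a secreted binder of insulin-like growth factors, was the 1 of 13 genes of that axis called, with 3.92 and 4.42 in A and 6.29 and 6.19 in B (-2.07, SE 0.22, adjusted p = 0.0207).

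In the PDGF, VEGF and angiopoietin list, 1 of 23 was called in each direction. The co-receptor gene Nrp2 was higher in A (3.65 and 3.58 against 1.46 and 1.90, 1.93, adjusted p = 0.0209), and Tek, the angiopoietin receptor gene known from endothelium, was higher in B (0.67 and 0.39 against 1.73 and 1.71, -1.19, adjusted p = 0.0494). Of 10 Notch genes, Notch3 alone was called, higher in A (1.25, adjusted p = 0.043). Of 8 neurotrophic genes, Gfra2, a receptor for neurturin, alone was called, with 3.88 and 3.90 in A and 2.73 and 2.65 in B (1.20, adjusted p = 0.0369). Sema3c was the only one of 31 guidance genes called. For 21 FGF and HGF genes, 11 hedgehog genes and 8 neuregulin and EGF genes, 0 were called at adjusted p under 0.05 in limma, while 6, 0 and 4 had an unadjusted p under 0.05, against 13.4% of all genes. Fgf10, a ligand for lung epithelium, had levels of 2.43 and 2.55 in A and 1.79 and 1.89 in B (0.65, adjusted p = 0.19). The receptor gene Fgfr3 differed by 1.07 (adjusted p = 0.0509) and the ligand gene Fgf18 by -1.05 (adjusted p = 0.0851). Of the 21 FGF and HGF differences, 10 were positive and 11 negative, with a median of -0.01.

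Bmp3 and Igfbp5 stayed called without any one array. Wnt10b missed the threshold without A2 (adjusted p = 0.0677) and Nrp2 without A1 or A2 (up to 0.0701). Notch3 missed it without A1, A2 or B2 (up to 0.132) and with normexp correction (0.299). Sfrp4, Tek and Gfra2 missed it without any of A1, A2, B1 or B2, with adjusted p up to 0.121, 0.153 and 0.121.

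**Figure D4:**
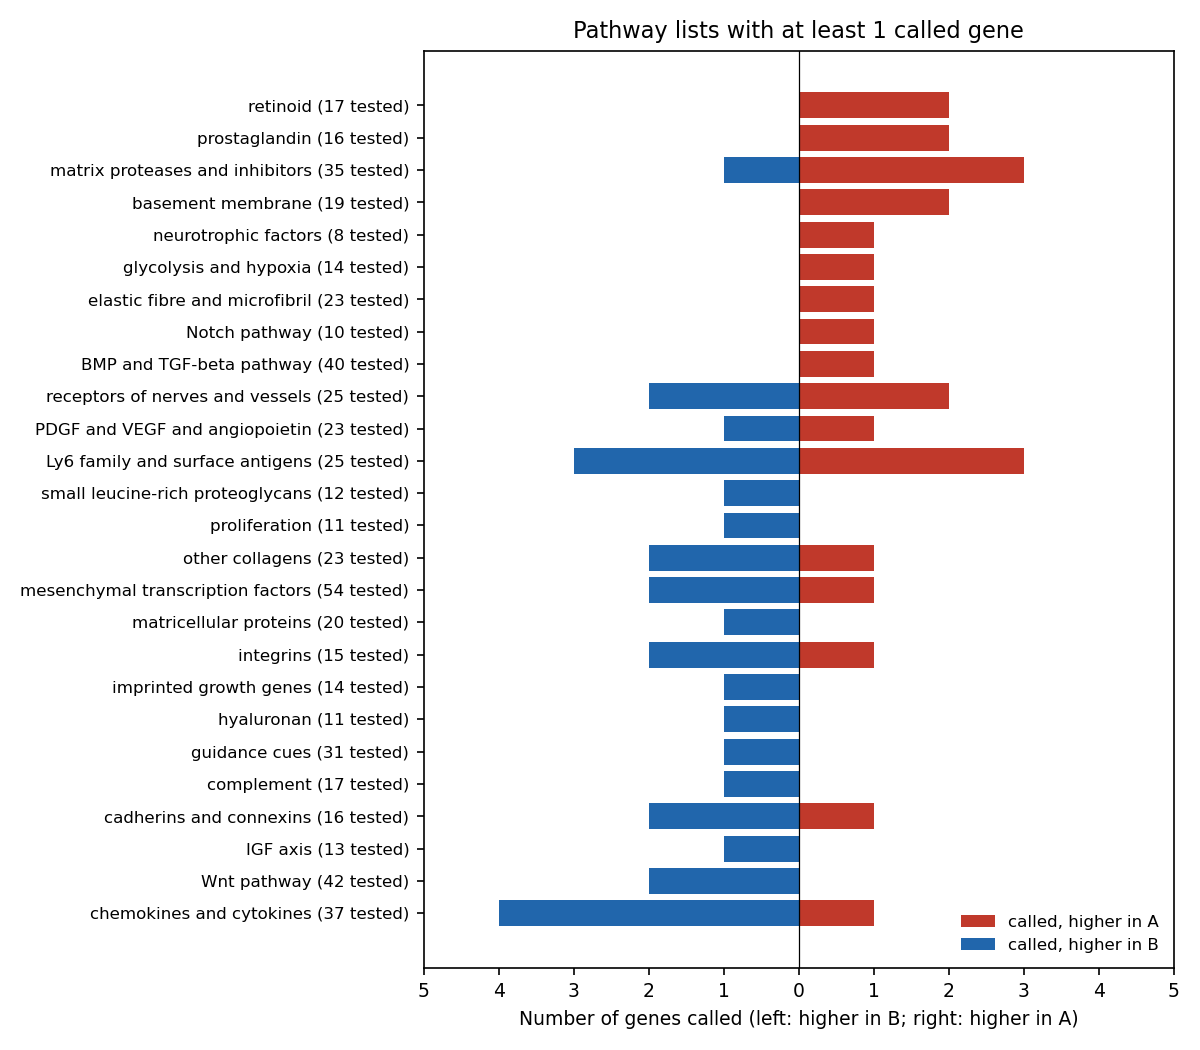
The number of called genes is drawn for each pathway list with at least 1 called gene, to the right for genes higher in A and to the left for genes higher in B, with the number tested in brackets. No list holds more than 4 called genes in one direction, the most being the 4 chemokine and cytokine genes higher in B.

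Of 37 chemokine and cytokine genes, 1 was called higher in A and 4 higher in B, with a median of -0.21. Of these 4, 3 encode atypical receptors that bind chemokines without classical signalling: Ackr2 and Ackr3, given above, and Ackr4 (-3.50 and -3.73 in A, -2.27 and -2.34 in B, -1.31, adjusted p = 0.0352). The fourth was Tnfrsf11b and the gene higher in A was Cxcl14. Of 17 complement genes, 1 was called, Cd55, a surface regulator that limits complement activation, with levels of -0.17 and -0.11 in A and 1.36 and 1.86 in B (-1.75, adjusted p = 0.0262). Its near-identical copy Cd55b was also called (-1.61, with -0.35 at its other probe), and the probes of both genes may share transcripts. For 28 interferon and MHC class I genes and 13 toll-like receptor and NF-kB genes, 0 were called in limma, with 1 and 2 at an unadjusted p under 0.05. Cd55 missed the threshold without A1 or A2 (adjusted p up to 0.0928), Ackr3 without A1, A2 or B1 (up to 0.122), and Ackr4 without any of A1, A2, B1 or B2 (up to 0.12) and with normexp correction (0.264).

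Both called retinoid genes and both called prostaglandin genes were higher in A. Of 17 retinoid genes, 2 were called higher in A and 0 higher in B, with a median of 0.31. Lrat, the enzyme gene for retinyl ester storage, had levels of 2.96 and 2.72 in A and 1.15 and 1.30 in B (1.61, SE 0.18, adjusted p = 0.0213). Aldh1a1, an enzyme gene of retinoic acid synthesis, had levels of 5.01 and 5.20 against 3.84 and 3.69 (1.34, SE 0.18, adjusted p = 0.0322). Cyp26b1, which degrades retinoic acid, did not pass the test (1.62, adjusted p = 0.0593). The related enzyme gene Aldh1a3 leaned the other way without passing it (2.38 and 2.55 in A, 3.39 and 3.30 in B, -0.88, adjusted p = 0.0961). Aldh1a2 differed by 0.23 (adjusted p = 0.655). Of the 17 retinoid differences, 13 were positive and 4 negative. Of 16 prostaglandin genes, 2 were called higher in A and 0 higher in B, while the list's median was -0.20. These were the receptor gene Ptger2 (-0.12 and -0.05 against -1.42 and -2.07, 1.66, adjusted p = 0.0468) and Hpgd, which inactivates prostaglandins (-0.04 and -0.40 against -1.98 and -1.69, 1.62, adjusted p = 0.0303). The synthase genes Ptgs1 and Ptgs2 differed by -1.35 and -0.88 without passing the test.

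Of 27 lipid storage genes and 14 glucocorticoid response genes, 0 were called in limma, with 7 and 2 at an unadjusted p under 0.05. The glycolysis list had 1 of 14 called, Pfkfb3 (2.74 and 2.71 in A, 1.55 and 1.61 in B, 1.14, adjusted p = 0.0408), a regulator of glycolysis. Without A1 or A2, Lrat and Hpgd missed the threshold (adjusted p up to 0.0708 and 0.0962), and so did Aldh1a1 and Ptger2, which also missed it without B2 (up to 0.115 and 0.141). Pfkfb3 missed it without any of A1, A2, B1 or B2 (up to 0.13).

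Receptors and ligands that link fibroblasts to nerves and vessels split between the types. Of 25 tested, 2 were called higher in A and 2 higher in B, with a median of 0.19. Both genes called toward A encode adrenergic receptors. Adra1a had levels of 0.70 and 0.84 in A and -2.41 and -1.53 in B, a 6.69-fold difference (2.74, SE 0.30, adjusted p = 0.0213). Adrb3 had levels of -0.26 and -0.27 against -2.22 and -1.59 (1.64, adjusted p = 0.0447), with 0.14 at its other probe. Toward B, the angiotensin receptor gene Agtr1a had levels of -1.12 and -1.29 in A and 0.01 and 0.18 in B (-1.30, adjusted p = 0.0364). The gene of the vasoconstrictor endothelin 1, Edn1, was at least 3.56-fold higher in B (adjusted p = 0.0142), and its receptor gene Ednrb differed the other way without passing the test (2.91, adjusted p = 0.0972). Edn1 stayed called without any one array. Adra1a and Adrb3 missed the threshold without A1 or A2 (adjusted p up to 0.0761 and 0.131) and Agtr1a without A1, A2 or B2 (up to 0.123).

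Among 54 transcription factors that pattern mesenchyme, 1 was called higher in A and 2 higher in B, where 1.34% of all genes were called. An unadjusted p under 0.05 was reached by 24 of the 54, and the median was -0.09. Meox1, a homeobox gene of early mesoderm, had levels of -2.24 and -2.44 in A and 0.58 and 0.40 in B, a 7.11-fold difference (-2.83, SE 0.18, adjusted p = 0.0086). Tbx18, a T-box gene, was at least 2.08-fold higher in B (adjusted p = 0.0447). The T-box gene Tbx2 had levels of 1.00 and 1.03 in A and -0.57 and -0.63 in B (1.61, SE 0.16, adjusted p = 0.0186). Tbx4, another T-box gene of lung mesenchyme, missed the threshold (3.16 and 3.03 against 2.05 and 1.84, 1.15, adjusted p = 0.0515). Of 18 Hox genes tested, 0 were called in limma and 3 had an unadjusted p under 0.05. H19, an imprinted non-coding RNA, was the 1 of 14 imprinted growth genes called, higher in B (-1.08 and -0.81 against 0.82 and 0.54, -1.62, adjusted p = 0.0251). Cdkn2b, a cell cycle inhibitor gene, was the 1 of 11 proliferation genes called, at least 3.02-fold higher in B. Without A1 or A2, Tbx2, Tbx18, H19 and Cdkn2b missed the threshold, at adjusted p up to 0.0701, 0.136, 0.0881 and 0.0793. With normexp correction, Tbx18 (adjusted p = 0.265) and Cdkn2b (0.0682) were not called.

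Genes of surface proteins were called in both directions. Only RNA was measured, and whether the proteins tell the types apart was not tested. In the list of surface antigens, 3 of 25 were called higher in A and 3 higher in B, with a median of -0.26. Toward A these were Prom1, Cd24a (at least 5.1-fold) and the adhesion molecule gene Alcam (1.15 and 1.29 against -0.39 and -0.04, adjusted p = 0.0364). Toward B they were Thy1, Cd55 and Procr, the endothelial protein C receptor gene (0.47 and 0.25 in A, 2.06 and 1.94 in B, -1.63, adjusted p = 0.0213). Cd24a had levels of -1.32 and -2.04 in A, was not above background in B, and had 3.56 and 3.17 in pulmonary single cells. Of 16 cadherin and connexin genes, 1 was called higher in A (Gja5) and 2 higher in B, the protocadherin genes Pcdh20 (-1.73, adjusted p = 0.042) and Pcdh19 (-0.66 and -0.59 against 0.60 and 0.68, -1.27, adjusted p = 0.0305). Cd24a stayed called without any one array. Procr missed the threshold without A2 (adjusted p = 0.0776), Pcdh20 without A1 (0.0803), Alcam without A1, A2 or B1 (up to 0.121) and Pcdh19 without any of A1, A2, B1 or B2 (up to 0.108).

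Markers of other cell types were mostly uncalled. Because the samples are bulk RNA, fewer cells of a type and less RNA per cell cannot be told apart. Of 8 smooth muscle markers tested, 1 was called higher in A and 0 higher in B. It was Mylk, myosin light chain kinase, with 3.03 and 3.07 in A and 1.41 and 0.97 in B (1.86, adjusted p = 0.0213) and 0.11 at its other probe. Both A arrays lay above both B arrays for 5 of the 8, against 22% of all genes, and the median was 0.36. The log2 of the list's summed signal was 4.46 and 4.65 in A and 3.79 and 3.69 in B. The defining marker Myh11 had levels near -3 on all 4 arrays (-2.89, -3.05, -3.14 and -3.01), and Myocd, Lmod1 and Actc1 were not above background. Of 10 pericyte markers, Notch3 was called, with summed signals of 5.13 and 5.21 in A and 5.18 and 4.97 in B, and Rgs5 was not above background. Tek was the 1 of 7 blood endothelial markers called, higher in B. Their summed signal was 3.06 and 3.22 in A and 3.63 and 3.41 in B, while Cdh5, Tie1, Egfl7 and Erg were not above background. Kit, in the neutrophil and mast cell list, was at least 2.33-fold higher in A, dim there and not called without A2 (adjusted p = 0.0556) or with normexp correction (0.217). Of the 10 genes of that list 2 were tested. Their summed signals of 7.27 and 7.08 in A and 7.08 and 7.17 in B equal the levels of Csf3r alone. Csf3r had 7.33 and 7.45 in C-type cells and 7.10 and 7.64 in pulmonary single cells, a similar level in every group. Mylk missed the threshold without A1 or A2 (adjusted p up to 0.0776) and Notch3 without A1, A2 or B2 (up to 0.132). The part of these cells in the differences was not tested.

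For the lists of mesothelium, cartilage, lymphatic endothelium, alveolar type 1 and type 2 cells, airway epithelium, macrophages, T cells, B cells, red cells and Schwann cells, 102 genes in all, 48 were tested and 0 were called in limma. Of the 48, 12 had an unadjusted p under 0.05, against 13.4% of all genes, and the median difference of the 48 was 0.13. The summed signal of the macrophage list was 4.9 and 4.99 in A and 4.78 and 4.71 in B. Most of it came from Csf1r (4.79 and 4.86 in A, 4.66 and 4.59 in B), which had 4.48 and 5.74 in pulmonary single cells. Cd68 in the same list had -0.49 and 0.19 in A, -0.08 and -0.66 in B and 3.53 and 4.63 in pulmonary single cells. For the type 2 list the summed signal was 2.72 and 2.68 against 2.78 and 3.28. Epcam, Cdh1, Sftpb, Tyrobp and Msln were not above background on both arrays of either type. Sftpc, the surfactant gene of alveolar type 2 cells, had levels of -0.48 and -0.13 in A and -1.82 and -0.93 in B (1.07, adjusted p = 0.253), against 7.77 and 7.82 in the pulmonary single cells. Of 21 immediate early genes, which tissue dissociation can induce, 0 were called in limma and 4 had an unadjusted p under 0.05. The median difference of the 21 was 0.15. Both A arrays lay above both B arrays for 22% of all genes and for 10 of these 21. Their summed signal was 10.65 and 10.74 in A and 10.58 and 10.57 in B.

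The same genes had the following levels in the other samples, given as a description without a test. For the 126 genes higher in A, the median level of A-type cells was -0.38 and that of B-type cells -2.22, while C-type fibroblasts had 0.56 and pulmonary single cells -1.03. For the 84 genes higher in B, the A median was -1.78 and the B median 0.06, while C-type fibroblasts had -3.68 and pulmonary single cells -2.45. The A and B values chose these genes, which fixed the order of A and B, and probes were kept through A or B only. The C and pulmonary values had no part in that choice. In both sets the median of A lay between those of B and C. Both C arrays lay above both A arrays for 74 of the 126 genes and below for 26. Of the 84, they lay below for 46 and above for 16. Over all genes tested, they lay above for 21.7% and below for 31.3%. On the C arrays, 60.1% and 54.1% of probes were well above background. Itga8 had levels of 4.89 and 5.28 in C and 2.12 and 2.81 in pulmonary single cells, and Npnt of 6.05 and 6.43 against 3.57 and 3.71. Dpp4 had levels of -3.30 and -5.42 in C and 2.30 and 1.22 in pulmonary single cells. Meox1 and Thy1 did not follow a single order, since the C-type arrays themselves were far apart (0.40 and -1.98 for Meox1, 1.89 and -1.56 for Thy1). The C-type replicates were at least 2-fold apart for 19.7% of the genes and the pulmonary replicates, on another slide, for 31.2%.

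The number of called genes changed with the fit. When the 2 C-type arrays, or all 8 arrays, shared the estimate of the spread, 0 genes were called in limma, with 961 and 507 at an unadjusted p under 0.05. With every named gene on the array kept, dim ones included, 0 of 23607 were called and 1966 had an unadjusted p under 0.05. Of the 78 called genes named by rule, 0 changed sign in any setting that gave the gene a value. With median scaling, 22 of the 78 missed the threshold, at adjusted p from 0.0531 to 0.0971. They were Ackr3, Adamts9, Adamtsl3, Adrb3, Akr1c18, Alcam, Aldh1a1, Col12a1, Gfra2, Itga3, Itgb3, Ltbp2, Notch3, Pcdh19, Pcdh20, Pfkfb3, Ptger2, Sema3c, Serpine2, Tbx18, Tek and Thbs2. With quantile normalization 25 missed it, at adjusted p from 0.05 to 0.107, among them Prom1, Cd55, Gpr173, Ptprv, Sfrp4 and Trim30e-ps1, which median scaling kept. When the probes of each gene were averaged, Mylk, H19, Col12a1, Itgb3, Adrb3 and Pfkfb3 missed it. With normexp correction, 38 of the 78 differences changed in size by more than 1.5 times.

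**Figure D5:**
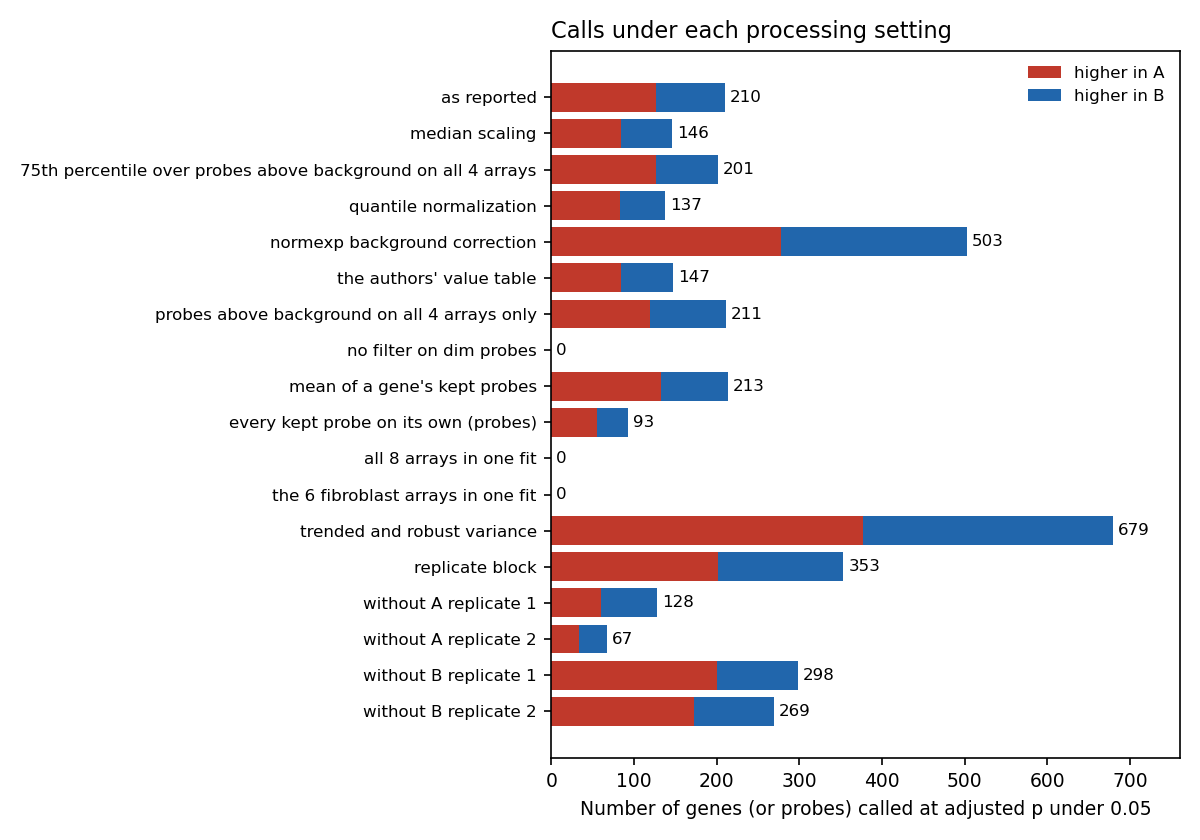
The number of called genes (horizontal axis, adjusted p under 0.05) is drawn for the reported setting and 17 alternatives, with genes higher in A in red and higher in B in blue. The counts run from 0 to 679 against the reported 210, and the bar for single probes counts probes.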

How the data were processed

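Per the file headers, Agilent Feature Extraction 10.10.1.1 gave the deposited spot intensity, background-subtracted. Per the deposited value table, log2 values were also given, and each of its columns equalled log2 processed signal minus 1 constant per array (within 0.02 for 100% of probes). Its medians were 4.84 to 4.85, with the scale, centring and direction settled by that match. Probe sequences and coordinates were not used here.

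Control spots and outlier spots were left out (28 probes were lost), the log2 signals of 432 probes with several spots were averaged, and each array's 75th percentile was subtracted. The RefSeq gene table for the mouse named the probes, 28011 by accession and 22810 not at all. Of 55653 probes, 818 listed several genes and none of them stood for a called gene. Probes well above background on both arrays of A or B were kept, and the brightest stood for its gene (15615 of 23607 named genes).

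Limma 3.58.1 (lmFit, eBayes; R 4.3.3) compared the 4 arrays alone, with 2 residual and 3.92 prior degrees of freedom and Benjamini-Hochberg adjustment. The small number of arrays limits the precision. On simulated data over 15615 genes, this A against B test recovered 6% of changes of log2 size 1 and 96% of size 2, with 12 false among 162 calls. The simulated spread of a gene did not depend on its level, so these rates may not hold for dim genes. Where the dimmer group was above background on 0 arrays, the fold is an approximate lower bound. It is the brighter mean over, per dim array, the higher of its own signal and the lowest signal above background. That lowest signal was taken over all probes of the array, and a higher limit for a given spot could give a smaller bound.

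Named genes are the sorting panel, the 15 largest called differences and up to 3 called genes of each list, both in each direction. The largest differences were limited to plain symbols and to genes whose A and B arrays did not overlap. Genes outside the rule were chosen after their values were seen. The comparison and the lists were chosen with earlier results of these data known. Other scalings, background corrections, filters, probe choices, variance models and left-out arrays were tried. Python 3.11.15, pandas 2.3.3, numpy 2.4.6 and matplotlib 3.10.9 were used.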

Additional observations from a re-analysis of the deposited data

How the results depend on the processing

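Against 210 called genes, quantile normalization gave 137, normexp background correction 503 (121 of them at least 2-fold), a trended and robust variance model 679, and every kept probe on its own 93 of 33892 probes. The fits over all 8 arrays, over the 6 fibroblast arrays and without a filter on dim probes gave 0, 0 and 0, with lowest adjusted p of 0.0947, 0.074 and 0.212. The C-type and pulmonary replicates differed more than those of A and B, as given above. Median scaling (146), the authors' value table (147), a 75th percentile taken from probes that all 4 arrays detected (201), the filter for background on all 4 arrays (211) and the mean of probes (213) stayed within 1.5 times in number, as did adding a 2-fold limit (210). The calls shared with the 210, in the same direction, were 144, 144, 196, 134 and 197 for the first 5 of these. Leaving out 1 array gave 67 to 298 calls. The lone sample of the shortened group is then assumed to vary like the other group, and 67 came without A2, 128 without A1, 269 without B2 and 298 without B1.

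The labels number the samples 1 and 2 in both types, and the deviations of same-numbered samples correlated at -0.096 over genes, so the numbers were not taken as pairs. With the replicate block, 353 genes were called, 209 of them among the 210. No slide block could be fitted, because all 4 arrays share 1 slide.

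Of the 78 called genes named by rule, 56 stayed called with median scaling, 53 with quantile normalization, 66 with normexp and 32 without A2, and 0 reversed. The depth of the signal limits 39 and 26 genes of each direction to a bound.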

Other observations

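Some called genes lie outside the lists and were grouped after their values were seen, so they carry no further test. Genes of membrane transport were called in both directions. The amino acid transporter gene Slc38a5 had levels of 3.33 and 3.47 in A and 0.98 and 0.83 in B (2.50, SE 0.17, adjusted p = 0.0086), and Slc36a2 of 3.89 and 3.79 against 1.97 and 1.82 (1.95, adjusted p = 0.0124). Both genes were bright on all 4 arrays and stayed called without any one array. The calcium channel gene Cacna1d had levels of 0.87 and 0.85 against -1.26 and -1.16 (2.07, adjusted p = 0.0101), with 1.36 at its other probe. Toward B, the potassium channel gene Kcnt2 (-1.59) was called and was above background on all 4 arrays. The proton pump subunit gene Atp6v0a4, the sodium/proton exchanger gene Slc9a7, the receptor channel gene Gabrb1 and the transporter gene Slc16a10 were also called. These were not above background in A, and were at least 1.8, 2.57, 2.13 and 1.63-fold higher in B. With normexp correction none of them was called, at adjusted p from 0.174 to 0.412, and Gabrb1 changed sign in 1 setting. Atp6v0a4, Slc9a7, Kcnt2 and Gabrb1 missed the threshold without A1 or A2, and Slc16a10 without any one of A1, A2, B1 and B2. Gyg, which encodes glycogenin, the primer of glycogen synthesis, was higher in A (3.85 and 4.01 against 2.22 and 2.01, 1.82, adjusted p = 0.0169), as Ppp1r3a was. Without A2, Gyg missed the threshold. Rgs2, a regulator of G-protein signalling, was higher in A (3.28 and 3.35 against 1.04 and 1.60, 1.99, adjusted p = 0.0222) and missed the threshold without A1 or A2.

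Toward B, the secreted pattern-recognition gene Ptx3 had levels of 2.71 and 2.70 in A and 3.89 and 4.39 in B (-1.43, adjusted p = 0.0487). It was called in 5 of 12 other settings that kept all 4 arrays. Cmah, a sialic acid enzyme gene, had levels of -0.91 and -0.27 against 1.72 and 1.54 (-2.23, adjusted p = 0.0216). The protease gene Prss23 (-1.37) and its antisense partner Prss23os (-1.44) were both called, and their probes may read overlapping transcripts. The thioesterase genes Acot1 (1.26) and Acot2, near-identical copies, were both called toward A. Acot2 was not above background in B, was at least 2.16-fold higher in A and was not called with normexp correction (adjusted p = 0.431). Of other settings that kept all 4 arrays, Acot1 was called in 6 of 12 and Acot2 in 3 of 11. Probes of a gene disagreed in sign for Chdh, called at 2.45 with -0.05 at its other probe, and for Arl5c, called at 1.24 with -0.31.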
